A study of Drosophila melanogaster with 16 samples.

Results

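The noncoding RNAs described here are 42 genes, 38 annotated as long noncoding RNAs (lncRNAs) and 4 as antisense RNAs (asRNAs), that were far more abundant in male than in female flies. They were chosen from 2366 lncRNA and asRNA genes, among 17490 genes in all, by 2 criteria. The mean over 8 male libraries had to reach 5 CPM (the count scaled by the library total), and this mean had to be at least 10 times the mean over 8 female libraries. *roX1* and *roX2*, the RNAs of the dosage compensation complex, were left out. Of the 2366 genes, 422 reached the male level. The sex difference chose these genes and is therefore given as a description without a test, and the tests concern differences between lines.

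The 16 libraries, each from a pool of 30 whole flies aged 3 to 5 days, comprise 2 per sex of the wild-type line DGRP_208 and of the deletion lines *208-ΔA*, *208-ΔF* and *208-ΔG*. DGRP_208 is an inbred line of *Drosophila melanogaster*, and the deletion lines, made in it with CRISPR-Cas9, were homozygous for loss of the promoter region and exon 1 of *Uhg4*, a lncRNA that hosts small nucleolar RNAs. The deletion stocks were kept over the balancer *CyO*, and each deletion line carries 1 independent mutation, so a line and its mutation cannot be told apart. Counts summed to 22401064 to 51954693 in males and 13902521 to 44093287 in females. *Uhg4* stood at 0.195 to 1.02 CPM after TMM scaling in the 12 deletion libraries and at 6.66 and 6.67 CPM in DGRP_208 females. In DGRP_208 males it stood at 1.89 and 0.974 CPM, the latter within the range of the deletion males on this scale. By library total the DGRP_208 males stood at 1.505 and 1.27 CPM, above the 0.298 to 0.848 CPM of the deletion males.

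Long noncoding RNAs are transcripts that encode no known protein, and some act on chromatin, on neighbouring genes or on other RNAs while many have no known role. In *Drosophila* the testis is known for transcribing many genes that are silent elsewhere, and a large number of its lncRNAs are switched on in spermatocytes, together with the genes for sperm structure, by testis-specific forms of the transcription machinery (tTAFs and tMAC). Antisense RNAs are transcribed from the opposite strand of another gene. With the exception of *lncRNA:Yu*, all 42 carry a systematic CR number as their symbol. In whole flies, a difference in level cannot be told apart from a difference in the amount of the tissue that makes the RNA.

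The 4 most abundant of these RNAs were *lncRNA:CR32652*, *asRNA:CR44370*, *lncRNA:CR9284* and *lncRNA:CR32658*, and together they held 49.8% of the summed male CPM of the 42, with 46.6 to 52.2% in single male libraries. *CR32652* (FBgn0052652) has 5 exons and lies on the minus strand of the X chromosome at X:12411018-12412181 in the dm6 assembly, 1193 bases from *CG2574*. *CR44370* (FBgn0265508) lies on the plus strand at 2R:15226938-15232665 and is antisense to *Fs*, follistatin, which binds activin-type ligands. *CR9284* (FBgn0046297) lies on the plus strand at 2R:21803402-21804338, and *CR32658* (FBgn0040859) on the plus strand at X:12091264-12092272, in an intron of *Ten-a*, a teneurin used in synaptic partner matching.

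In males *CR32652* stood at 411 and 293 CPM on the TMM scale in *208-ΔA*, 297 and 463 in *208-ΔF*, 155 and 167 in *208-ΔG* and 364 and 140 in DGRP_208, replicates 1 and 2. The 3 lowest values were those of both *208-ΔG* libraries and of DGRP_208 replicate 2. In females it stood at 0.195 to 0.54 CPM in 7 libraries and at 11.7 CPM in *208-ΔF* replicate 2, so no female library reached the lowest male one. *CR44370* stood in males at 374 and 256 CPM in *208-ΔA*, 253 and 378 in *208-ΔF*, 120 and 136 in *208-ΔG* and 378 and 166 in DGRP_208. The same 3 libraries were lowest. Unlike *CR32652*, it was present at several CPM in every female library, from 7.88 to 19.8 CPM. *CR9284* stood at 327 and 225, 216 and 327, 104 and 116, and 253 and 96.8 CPM in males, in the same order of lines, against 0 to 7.53 CPM in females. *CR32658* stood at 275 and 229, 203 and 304, 113 and 123, and 283 and 107 CPM in the same order, against 0.572 to 11.6 CPM in females. In both RNAs DGRP_208 replicate 2 was the lowest male library and *208-ΔF* replicate 2 the highest female one.

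**Figure D1:**
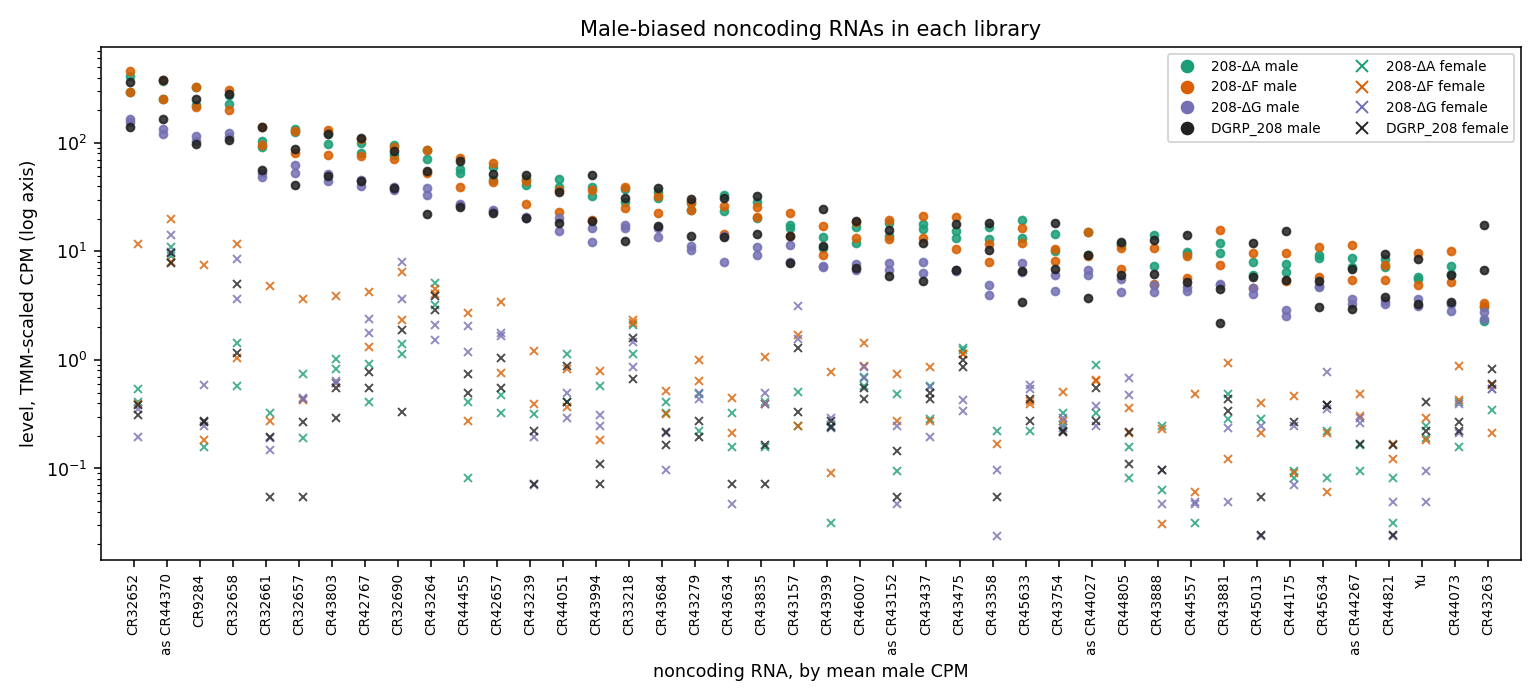
Level of each of the 42 noncoding RNAs in each library, in TMM-scaled CPM on a log axis, ordered by mean male CPM; filled circles are male and crosses female libraries, coloured by line, and the 18 female values of 0 are not drawn. The male points lie above the female points for every RNA, and the highest female cross belongs to *208-ΔF* replicate 2 in 28 of the 42.

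The rest of the 10 most abundant were *CR32661* (mean of 86.3 CPM in males by library total), *CR32657* (84.5), *CR43803* (82.1), *CR42767* (71.9), *CR32690* (63.3) and *CR43264* (52.3). With the first 4 they held 74.2% of the summed male CPM. Below them, 18 RNAs stood at 10 to 50 CPM and 14 at 5 to 10 CPM, and the median over the 42 was 12.8 CPM. Per kilobase of exon the order changed. *CR32652* remained highest at 303 RPKM (CPM per kilobase of exon) as the mean over male libraries, followed by the short *CR32657* (239 RPKM), *CR32658* (231) and *CR9284* (219), whereas *CR44370*, the longest at 5545 bases, came to 43.7 RPKM. The levels per kilobase ran from 6.02 RPKM in *CR43263* to 303, with a median of 33.3 RPKM.

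The male to female ratio of mean CPM ran from 10.001 to 156 with a median of 39.0. It was 100 or more in 7 RNAs, 50 to 100 in 6, 20 to 50 in 19 and 10 to 20 in 10. The 5 highest ratios were those of *CR9284* (156), *CR32652* (143), *CR43358* (139), *CR43634* (130) and *CR32661* (108), and the 5 lowest those of *CR43157* (10.001), *CR43263* (10.3), *CR43475* (13.03), *CR44073* (13.7) and *CR46007* (15.2). At the level threshold *CR43263* (5.01 CPM) and *CR44073* (5.27 CPM) were just inside, and *CR46040* (4.75 CPM) and *CR43633* (4.52 CPM) just outside. At the ratio threshold the nearest genes outside were *CR43278* (9.61) and *CR42850* (7.31). Leaving out any single library kept 39 to 42 of the 42, and 38 were kept in every case. The 4 that were not were *CR43157*, *CR43263*, *Yu* and *CR44073*, the last 2 lost only without *208-ΔF* male replicate 2.

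**Figure D2:**
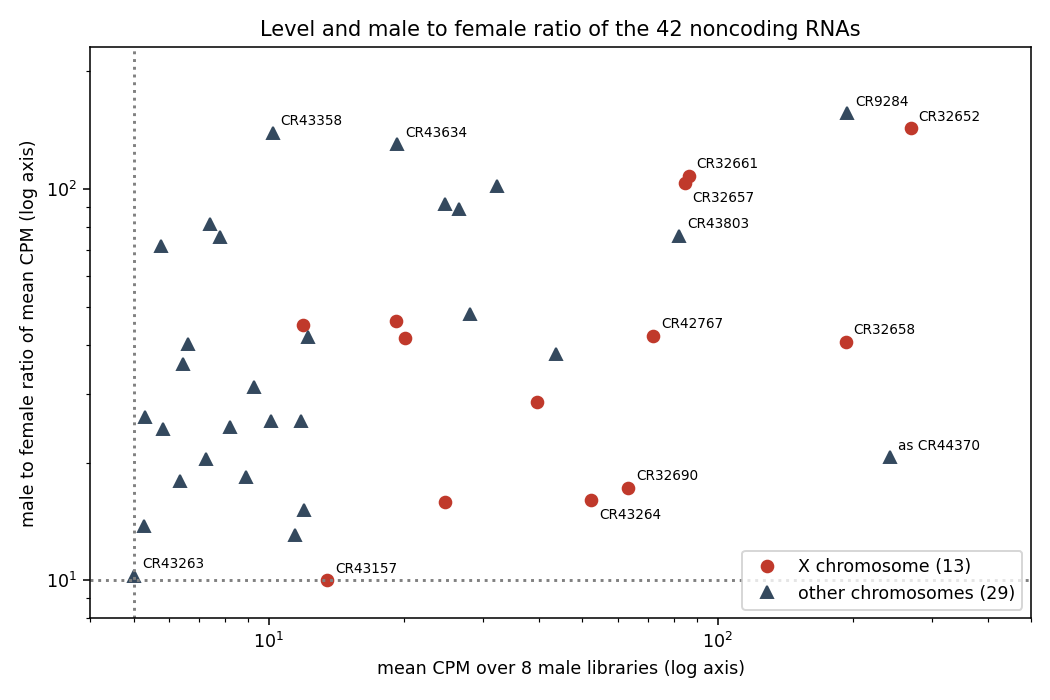
Mean CPM over 8 male libraries (horizontal, log axis) against the ratio of male to female mean CPM (vertical, log axis) for the 42 RNAs, with red circles for the X chromosome, dark triangles for the others and dotted lines at the thresholds that chose them. Most of the abundant RNAs are X-linked, and *CR43263* and *CR43157* lie at the thresholds.

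The female signal was unevenly spread over libraries. The summed counts of the 42 made up 0.00208 to 0.0114% of the counts in females and 0.139 to 0.238% in males, and the highest female share was that of *208-ΔF* replicate 2, where 30 of the 42 had their highest female CPM by library total. There the RNAs stood at a median of 6.42% of their mean male level, compared with medians of 1.07 to 3.79% in the other 7 female libraries. Genes of the male accessory gland, which make seminal proteins, also reached their highest summed female level in this library (186 CPM against 32.9 to 90.4 CPM on the TMM scale), as did genes of spermatocytes and spermatids (717 against 324 to 504 CPM). Their part in the female values of the noncoding RNAs was not tested.

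Without this library the ratio of some RNAs rose far more than that of others. *CR32652* had 12.6 CPM in it and a mean of 0.355 CPM in the other 7 female libraries, and its ratio went from 143 to 759. *CR9284* had 8.12 CPM in it against a mean of 0.265 CPM, and its ratio went from 156 to 734. In *CR32661* the ratio went from 108 to 510, in *CR32657* from 104 to 226 and in *CR43803* from 75.8 to 129. The means of these 5 in the other 7 female libraries lay between 0.169 and 0.639 CPM. In contrast, *CR44370* kept a mean of 10.4 CPM and a ratio of 23.3, and *CR43264* a mean of 3.11 CPM and a ratio of 16.8, with 2.23 to 4.35 CPM in the other 7 female libraries. *CR32658* ran from 0.461 to 12.4 CPM in these 7. Over the 42 the median ratio was 49.5 without this library, and 10 reached 100.

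At least 1 count was seen in all 8 female libraries for 29 of the 42 RNAs, and 18 of the pairs of RNA and female library had no count. *CR44557* had none in either DGRP_208 female library. A floor of 3 counts over both libraries corresponds to 0.0488 CPM, so at 8.99 CPM in DGRP_208 males it was at least 184-fold higher there, a bound that covers counting error only. Within lines, the male to female ratio of TMM-scaled means reached 10 in all 42 RNAs in *208-ΔA*, in 41 in *208-ΔF*, in 36 in *208-ΔG* and in 41 in DGRP_208, where *CR44557*, with no female count, is included among them. The median ratio was 76.3 in *208-ΔA*, 31.4 in *208-ΔF*, 21.7 in *208-ΔG* and, over the 41 with a female count, 63.6 in DGRP_208. The lowest was 4.13, that of *CR43157* in *208-ΔG*, where female replicate 1 stood at 4.68 CPM by library total. Libraries of *208-ΔG* in both sexes stood apart in the chemoreceptor measure given below, whose part in these ratios was not tested. In each line the lower male library was above the higher female one for all 42.

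The lists of tissue genes placed these values beside the tissues that differ between the sexes. All 30 genes of spermatocytes and spermatids had a higher mean in males, 22 of them at least 10-fold, among them *loopin-1*, a sperm protein of the leucyl aminopeptidase family, at 1116 CPM in males and 20.02 CPM in females. Of 24 accessory gland and ejaculatory genes 23 were higher in males and 22 at least 10-fold. All 11 testis transcription factors were higher in males but none reached 10-fold, and their sum ran from 138 to 171 CPM in males and from 27.6 to 136 CPM in females. In the spermatocyte and accessory gland lists 1 gene each had no count in at least 1 male library, and the sums ran from 4662 to 13428 CPM and from 4471 to 15595 CPM over the male libraries. The 23 genes of ovary, eggshell and yolk summed to 105 to 424 CPM in 7 male libraries and to 1807 CPM in *208-ΔA* male replicate 2. Leaving out this library and *208-ΔF* female replicate 2 gave 43 RNAs that met the criteria, among them all 42.

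The X chromosome carried 13 of the 42 RNAs (31.0%), compared with 11.8% of the 380 other lncRNA and asRNA genes that reached 5 CPM in males. Chromosome arms 2L, 2R, 3L and 3R carried 8, 5, 7 and 7, and the small chromosome 4 carried 2. Of protein-coding genes, 755 of 13802 met the same 2 criteria, and 7.42% of these were X-linked, compared with 15.6% of all protein-coding genes. These shares are descriptions without a test. Of the 10 most abundant of the 42 RNAs 7 were X-linked, and of the other 32 only 6. The median of the mean male CPM was 52.3 for the X-linked RNAs and 10.1 for the other 29. More than 1 exon was annotated in 12 of the 13 X-linked RNAs and in 10 of the 29 others.

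In 3 cases, 2 of these RNAs lay within 20000 bases of each other, all X-linked and each pair on the same strand. *CR32661* and *CR43157* were 446 bases apart on the minus strand, at X:11917806-11918678 and X:11919125-11919657. *CR32657* and *CR32658* were 3568 bases apart, both within an intron of *Ten-a*. The members of each of these pairs were far apart in level, at 86.3 and 13.5 CPM and at 84.5 and 193 CPM. *CR43279* and *CR43835*, 4945 bases apart, were at similar levels of 20.1 and 19.2 CPM.

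The median length of the 42 RNAs was 585.5 bases, against 1058.5 in the other noncoding genes at 5 CPM and 662.5 in all 2324 other noncoding genes. A single exon was annotated in 20 of the 42 (47.6%), against 54.7% and 62.5% in these 2 sets. An intron of another gene contained 13 of the 42 (31.0%, against 22.9% and 16.5%). These hosts include *beat-Ib*, an axon guidance gene, for *CR43803*, *Raf*, the MAP kinase kinase kinase, for *CR33218*, and *loco*, a regulator of G protein signalling, for *CR43475*. Exons of 9 overlapped another gene, on the opposite strand in 7 and on the same strand in 2 (*CR43939* and *CR44175*, each with a hairpin RNA gene). Whether counting used strand is not given in the sources used here, so reads of overlapping genes could be shared or lost for these 9. *asRNA:CR43152* overlapped *CG15721*, which had the opposite bias, with a male to female ratio of 0.114.

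The nearest protein-coding genes mostly had a smaller sex bias than the RNAs. Of the 25 RNAs that lay apart from their nearest protein-coding gene, 15 were within 1000 bases of it, and in 7 (28.0%) that gene was itself at least 10-fold higher in males, against 13.8% for the other noncoding genes at 5 CPM. These 7 neighbours include *SP*, the sex peptide transferred to females in seminal fluid, 819 bases from *CR44557* and with a ratio of 320, and *Hsp60C*, a chaperonin gene required in spermatogenesis, 617 bases from *CR44821* and with a ratio of 18.1. *CG31226* lay 66 bases from *CR45633* on the same strand, with a ratio of 133. The others were *CG31804*, *CG2574*, *CG5790* and *CG31093*, with ratios of 38.9, 30.1, 27.4 and 22.7. By contrast *pot*, 546 bases from *CR32661*, had a ratio of 1.10, and *nej*, the CBP acetyltransferase gene, 1123 bases from *CR42657*, a ratio of 0.680.

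Between lines, none of the 42 RNAs passed the test. The 6 deletion male libraries were compared with the 2 DGRP_208 male libraries by edgeR's quasi-likelihood test, with p-values adjusted by Benjamini-Hochberg over 16212 genes and called under 0.05. Of all genes tested 10 were called (0.0617%) and of the 42 RNAs 0, with 2 of the 42 at an unadjusted p under 0.05, against 2.94% of all genes. DESeq2 called 1 of the 42, *CR43263*, which reached 5 CPM only through the DGRP_208 males, and 0.376% of all genes. By limma-voom these were 0 and 0.0432%. The median log2 fold change of the 42 was −0.12, against −0.05 over all genes, and 18 of the 42 were above 0. This median depended on the DGRP_208 males. It was 0.55 without replicate 1, with 37 above 0, and −0.65 without replicate 2. With library totals it was −0.03 and by limma-voom 0.00217.

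The sums over the 42 show the spread between the DGRP_208 males. These sums came to 2663 and 2149 CPM on the TMM scale in *208-ΔA* males, 1856 and 2862 in *208-ΔF*, 1017 and 1127 in *208-ΔG* and 2576 and 1062 in DGRP_208. The DGRP_208 replicates differed more than the line means did, which were 2406 ± 363 (SD, n = 2) in *208-ΔA*, 2359 ± 711 in *208-ΔF*, 1072 ± 77.5 in *208-ΔG* and 1819 ± 1070 in DGRP_208. Replicate 1 was above replicate 2 in DGRP_208 for all 42 RNAs, by a median of 2.38-fold (1.75 to 2.82). In 34 of the 42 the 3 lowest male libraries on the TMM scale were both of *208-ΔG* and DGRP_208 replicate 2, and in 14 of the 42 by library total.

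These 3 male libraries also stood apart in another measure. The median RPKM of 186 chemoreceptor genes, which are transcribed in few sensory neurons, was 4.18 and 4.14 in *208-ΔG* males and 3.37 in DGRP_208 male replicate 2, and 0.465 to 1.82 in the other 5 male libraries. Their TMM factors were 1.39, 1.40 and 1.30, against 0.796 to 0.940 in the others. By library total alone the sums of the 42 were closer together, at 1409 and 1579 CPM in *208-ΔG* and 1385 in DGRP_208 replicate 2, and 1745 to 2376 in the other 5, without overlap. In DGRP_208 the median ratio of replicate 1 to replicate 2 was then 1.45. The part of whatever sets the 3 libraries apart in the lower levels was not tested. In females, replicates 1 and 2, the chemoreceptor median was 5.81 and 2.86 RPKM in *208-ΔG* and 0.741 and 2.27 in *208-ΔF*. It was 0.350 and 0.930 in *208-ΔA* females and 1.96 and 0.613 in DGRP_208 females.

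**Figure D3:**
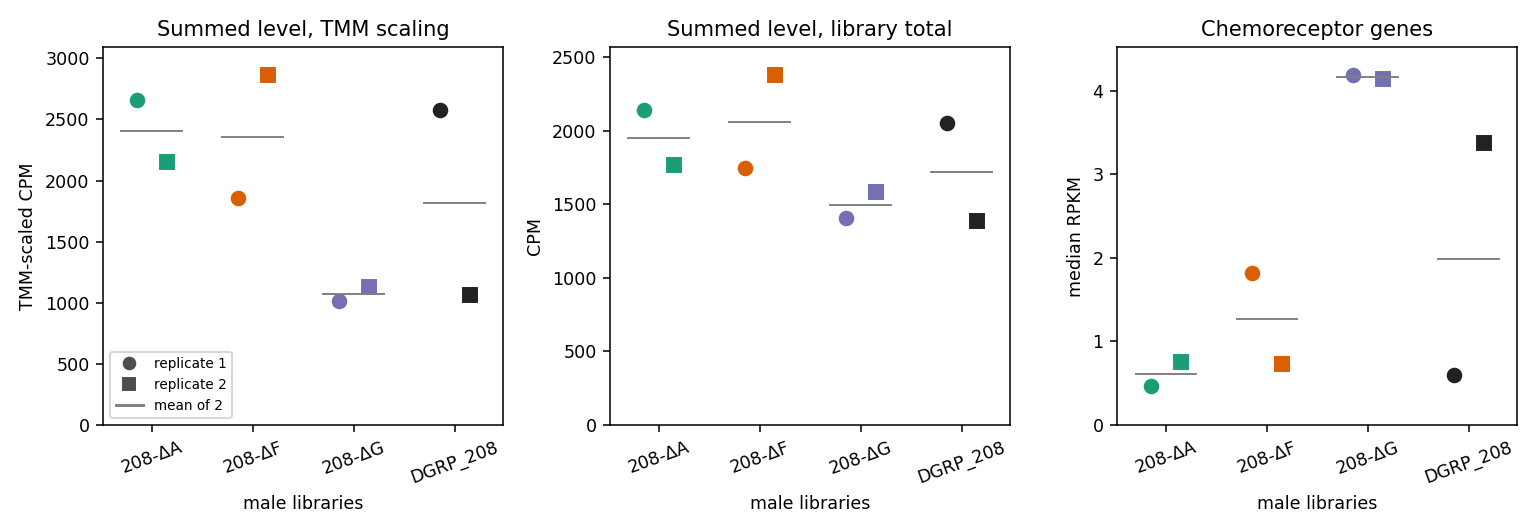
Summed level of the 42 RNAs in each male library in TMM-scaled CPM (left) and CPM by library total (middle), and the median RPKM of 186 chemoreceptor genes (right), with circles for replicate 1, squares for replicate 2 and grey lines for the mean of 2. The *208-ΔG* libraries and DGRP_208 replicate 2 are lowest in the first 2 panels and highest in the third.

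The test of any difference among the male lines called 8 genes (0.0493%) and none of the 42 RNAs, 4 of which had an unadjusted p under 0.05, against 19.8% of all genes. DESeq2 called 2 of the 42 and 3.44% of all genes, and limma-voom 0 and 0.037%. The 2 were *CR43263* and *CR45633*, whose choice is not independent of a difference between DGRP_208 and deletion males, as given below. The smallest p-values were those of *CR43263*, *CR43264*, *CR43279* and *CR45633*, each at an edgeR adjusted p of 0.251.

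By fitted value on the TMM scale, all 42 RNAs were lower in *208-ΔG* males than in the males of either other deletion line, but none passed the test. Against *208-ΔA*, edgeR called no gene at all (0%), although 7787 of the 16212 (48%) had an unadjusted p under 0.05, among them 10 of the 42 RNAs. The smallest adjusted p over all genes was 0.0624. The median log2 fold change was −1.15 over the 42, all 42 below 0, and −0.27 over all genes. With library totals in place of TMM factors these medians were −0.37 and 0.51, with 38 of the 42 below 0, and the distance between the medians was −0.88 under both. With the chemoreceptor level as a covariate they were −0.58 and −0.18. Of the 42, DESeq2 called 11 and limma-voom 17, all lower in *208-ΔG*, where these tools called 41.4% and 39.8% of all genes.

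*CR43279* (FBgn0262968) had the smallest p in this comparison. It stood at 27.7 and 24.0 CPM in *208-ΔA* males, 24.2 and 28.7 in *208-ΔF*, 11.2 and 10.3 in *208-ΔG* and 30.4 and 13.8 in DGRP_208. Both *208-ΔG* values were below those of every other male library. Its log2 fold change in *208-ΔG* against *208-ΔA* was −1.26 ± 0.414 (SE), with an edgeR adjusted p of 0.0628 (unadjusted p = 0.0111). *CR44370*, with its values given above, had a log2 fold change of −1.30 ± 0.461 and an adjusted p of 0.0657. The most negative value of the 42 was that of *CR43358*, −1.75 ± 0.864, at an adjusted p of 0.127.

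Against *208-ΔF*, *208-ΔG* males gave a median log2 fold change of −1.07 over the 42, again with all 42 below 0, and −0.23 over all genes. No gene was called (0%), with 7 of the 42 RNAs and 3854 of all genes (23.8%) at an unadjusted p under 0.05. The median of the 42 was −0.43 without *208-ΔF* male replicate 2, −1.35 without its replicate 1, −0.39 with library totals (0.43 over all genes) and −0.66 with the chemoreceptor covariate. This comparison and that with *208-ΔA* share the *208-ΔG* libraries. *208-ΔF* and *208-ΔA* males had a median log2 difference of −0.01 over the 42, with 21 of the 42 above 0, and again no call (0%), and none of the 42 but 2.15% of all genes had an unadjusted p under 0.05. DESeq2 and limma-voom also called none of the 42 in either comparison. Of all genes DESeq2 called 0.00617% against *208-ΔF* and 0.0185% for *208-ΔF* against *208-ΔA*, and limma-voom 0% in both.

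The tests of single lines against DGRP_208 share the DGRP_208 libraries and followed their spread. *208-ΔA* males gave a median log2 fold change of 0.32 over the 42 and 0.08 over all genes, with 0 of the 42 called against 0.0432% of all genes. *208-ΔF* males gave 0.28 and 0.03, with 0 called against 0.0308%. *208-ΔG* males gave −0.82 and −0.08, with no call in any gene (0%). With library totals the medians over the 42 and over all genes were 0.09 and −0.24 in *208-ΔA*, 0.17 and −0.18 in *208-ΔF* and −0.25 and 0.36 in *208-ΔG*. With the chemoreceptor covariate these medians were 0.17 and 0.07, 0.26 and 0.09, and −0.50 and −0.13, in the same order of lines. In a fit of the male libraries alone they were 0.23 and −0.02, 0.18 and −0.09, and −0.69 and 0.03. At an unadjusted p under 0.05 there were 4, 3 and 6 of the 42 for *208-ΔA*, *208-ΔF* and *208-ΔG*, against 9.76%, 3.16% and 12.2% of all genes. DESeq2 called 2, 0 and 1 of the 42 (*CR43263* and *CR45633* in *208-ΔA*, *CR43263* in *208-ΔG*), against 0.734%, 0.247% and 0.629%. Both RNAs were chosen only through 1 side of these comparisons, as given below. The number called by limma-voom was 0 in each, against 0.0493%, 0.0247% and 0.0123%. The median of the 42 was 0.91 without DGRP_208 replicate 1 in both *208-ΔA* and *208-ΔF*, and −0.18 and −0.25 without replicate 2. For *208-ΔG* the median was 0.01 without DGRP_208 replicate 1 and −1.36 without replicate 2, and 4 RNAs were called in the latter case, *CR43263*, *CR43279*, *CR43754* and *CR46007*, where 10.7% of all genes were called.

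**Figure D4:**
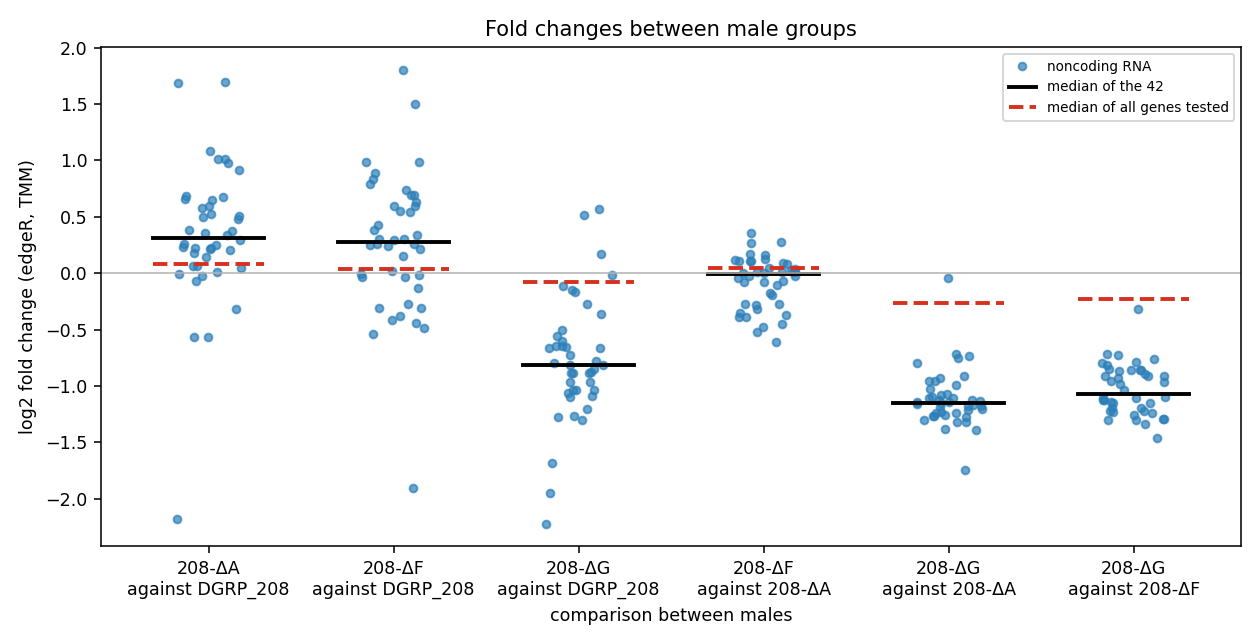
Log2 fold changes of the 42 RNAs between male groups from edgeR with TMM factors, 1 point per RNA, with black bars for the median of the 42 and dashed red bars for the median of all 16212 genes tested. The points of both *208-ΔG* comparisons with deletion lines lie below 0, with medians of −1.15 and −1.07, and the lone low point at −2.18 in *208-ΔA* against DGRP_208 is *CR43263*.

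Single RNAs departed from the common pattern of the male libraries. *CR43263* (FBgn0262944, 2L:1216854-1217785, minus strand) stood at 3.07 and 2.27 CPM in *208-ΔA* males, 3.31 and 3.17 in *208-ΔF*, 2.41 and 2.79 in *208-ΔG*, and at 17.5 and 6.79 CPM in DGRP_208. The 6 deletion libraries lay close together, and both DGRP_208 libraries were above all of them. Its log2 fold change in deletion males was −2.10 ± 0.525 (SE), with an unadjusted p of 0.00213 and an edgeR adjusted p of 0.585. Over the alternatives the log2 fold change ran from −2.64 to −1.38 and the adjusted p from 0.00358, by DESeq2, to 1.0. It was near the thresholds of membership. By library total its mean was 2.89 CPM in deletion males, below the 5 CPM required, and 11.4 CPM in DGRP_208 males. It was thus chosen only through its DGRP_208 males, which favoured a lower level in deletion males. Its tests and calls against DGRP_208 males are not independent of that choice.

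*CR45633* and *CR43881* went the other way by value. By library total their means in DGRP_208 males were 4.87 and 3.21 CPM, below the 5 CPM required. In deletion males these means were 11.9 and 8.60 CPM. Both RNAs were thus chosen only through the deletion males, which favoured a higher level there. Their tests and calls against DGRP_208 males are not independent of that choice. The values that follow are on the TMM scale. *CR45633* stood at 19.3 and 13.2 CPM in *208-ΔA* males, 11.9 and 16.5 in *208-ΔF*, 6.49 and 7.89 in *208-ΔG* and 6.61 and 3.42 in DGRP_208. The *208-ΔG* libraries overlapped DGRP_208, and those of the other deletion lines did not. Its log2 fold change in deletion males was 1.24 ± 0.495 with an edgeR adjusted p of 0.999, and 0.184 to 1.0 over the alternatives. *CR43881* stood at 9.72 and 11.9, 7.57 and 15.8, 5.00 and 4.91, and 4.49 and 2.18 CPM in the same order of lines. DGRP_208 replicate 1 came close to both *208-ΔG* values, and all 6 deletion libraries were above both of DGRP_208. The log2 fold change was 1.35 ± 0.665 with an edgeR adjusted p of 0.999.

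Taking each RNA as a percentage of the summed count of the 42 in the same library removes the scale of the library. This measure was added after the data had been seen and carries no test. *CR43263* made up 0.106 to 0.247% in the deletion males and 0.678 and 0.639% in DGRP_208 males. *CR45633* made up 0.577 to 0.723% against 0.257 and 0.322%, and *CR43881* 0.365 to 0.554% against 0.174 and 0.206%. In these 3 RNAs both DGRP_208 shares lay outside the range of the deletion libraries. *CR44175* made up 0.224 to 0.338% in deletion males against 0.601 and 0.517%, *CR43939* 0.503 to 0.726% against 0.963 and 1.06%, and *CR43754* 0.370 to 0.541% against 0.705 and 0.645%. In all, 21 of the 42 did not overlap between the groups in this share, against 6.7% of all genes tested when divided by the same sum. The shares of the 42 add up to a fixed total and so are not independent of each other, which does not hold for the other genes. Dividing by this sum also removes variation that the 42 share and can add it to other genes, so 6.7% is not a like baseline. The 21 include *CR43263*, *CR45633*, *CR43881* and *CR45634*, each chosen only through the group where it is higher. In CPM by library total 9 of the 42 did not overlap, against 7.55% of all genes. Of the largest shares, *CR44370* (11.8 to 14.03% in deletion males against 14.7 and 15.6%) was higher in DGRP_208 and *CR9284* (10.2 to 12.3% against 9.81 and 9.11%) lower, whereas *CR32658* overlapped, at 10.1 to 11.1% in all 8 male libraries, as did *CR43803*, at 4.18 to 4.67%.

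**Figure D5:**
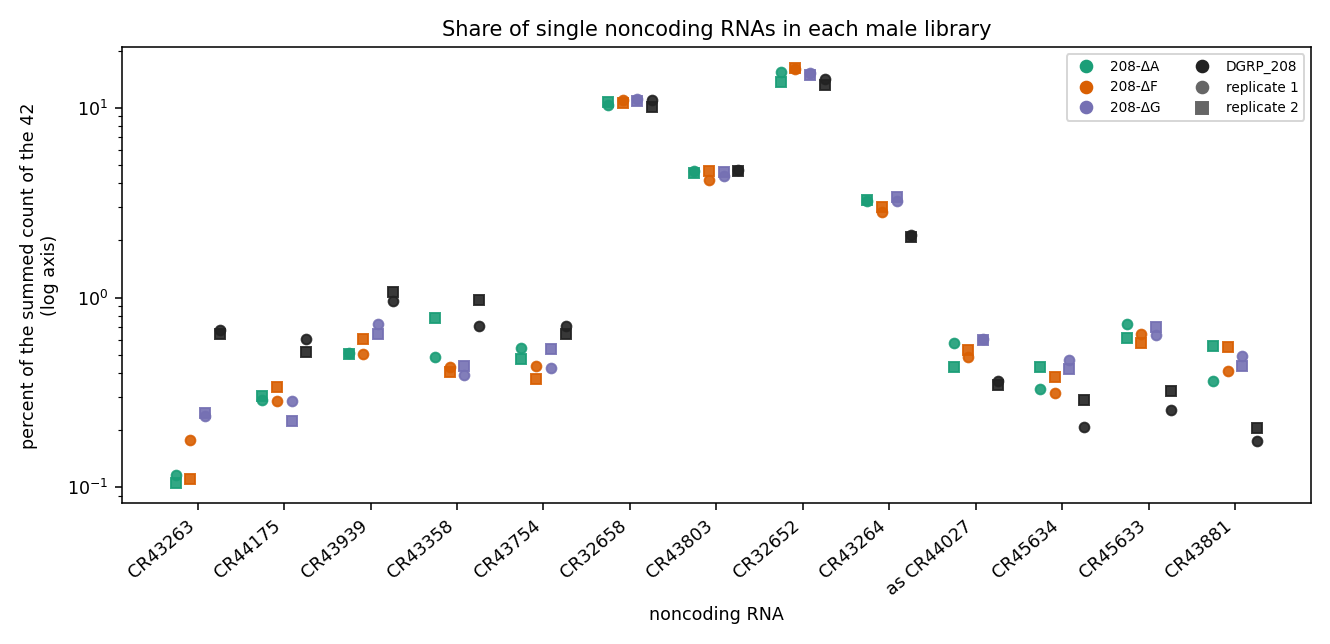
Percentage of the summed count of the 42 RNAs taken by single RNAs (log axis) in each male library, with circles for replicate 1, squares for replicate 2 and colours for lines. DGRP_208 stands above the deletion lines in *CR43263*, *CR44175*, *CR43939* and *CR43754*, below them in *CR43264*, *CR44027*, *CR45634*, *CR45633* and *CR43881*, and level with them in *CR32658* and *CR43803*.

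For the rest of the 5 higher and the 5 lower RNAs with the smallest p in deletion males against DGRP_208, the fitted log2 values were 0.58 for *CR43264*, 0.75 for *CR45634*, 0.60 for *CR44027*, −1.004 for *CR44175*, −0.57 for *CR43754*, −0.77 for *CR43939* and −0.72 for *CR43358*, all at an edgeR adjusted p of 0.999. By library total *CR45634* averaged 4.14 CPM in DGRP_208 males and 7.06 CPM in deletion males, so it too was chosen only through the deletion males. *Yu*, 574 bases from *Ssl*, stood at 5.53 and 5.83 CPM in *208-ΔA* males, 4.86 and 9.73 in *208-ΔF*, 3.65 and 3.12 in *208-ΔG* and 8.59 and 3.31 in DGRP_208. Both *208-ΔG* values were below those of the other deletion lines, DGRP_208 spanned most of the range, and the log2 fold change in deletion males was −0.20 ± 0.417.

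The difference of the deletion effect between the sexes was not called for any gene (0%) by edgeR, with 4 of the 42 RNAs and 411 of all genes (2.54%) at an unadjusted p under 0.05. DESeq2 and limma-voom called none of the 42 and 0.117% and 0.00617% of all genes. The median difference, males minus females, was −0.86 on the log2 scale over the 42 and −0.02 over all genes, and 31 of the 42 were below 0. This median was −0.21 without DGRP_208 male replicate 1 and −1.36 without replicate 2. The smallest p was that of *CR43835*, whose log2 difference was −2.38 ± 0.763 with an edgeR adjusted p of 1.0. Female counts of the 42 were low, at most 8 to 941 in the highest female library, and *208-ΔF* female replicate 2 enters this comparison.

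Genes of male tissues had fitted values in the same direction as the noncoding RNAs in the comparison of *208-ΔG* with *208-ΔA*. In *208-ΔG* against *208-ΔA* males the median log2 fold change was −1.19 over 29 spermatocyte and spermatid genes tested and −1.29 over 23 accessory gland genes, with none above 0 in either list, and −0.12 over the 11 testis transcription factors. In deletion males against DGRP_208 it was 0.20, −0.29 and 0.12. Over all genes these medians were −0.27 and −0.05. No gene of these lists was called in either comparison by edgeR, against 0% and 0.0617% of all genes. At an unadjusted p under 0.05 there were 3, 6 and 3 in the former, against 48% of all genes. In the latter there were 0, 0 and 1, against 2.94% of all genes. The part of these lists in the values of the noncoding RNAs was not tested.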

How the data were processed

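Total RNA depleted of ribosomal RNA was sequenced. According to the methods, the authors filtered reads with AfterQC, aligned them with GSNAP and counted unique alignments per gene with featureCounts of Subread. Versions of the last 2 tools and the strand setting are not given in the sources used here. The values deposited by the authors are whole counts without normalization, with gene lengths. The libraries are biological replicates by the methods. No replicate was a copy of another.

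The test covered the 16212 of 17490 genes whose median count reached 2, all 42 noncoding RNAs included, with TMM factors and the quasi-likelihood test of edgeR 4.0.16 in R 4.3.3, with 1 mean per group and 8 residual degrees of freedom, adjusted by Benjamini-Hochberg. SE was derived from the fold change and the F value. Positions come from the Ensembl annotation of dm6, and symbols were found for 17287 identifiers. The genes, lists, tests and alternatives were chosen with earlier results of these data known. Genes named were the 10 most abundant, those with the smallest p by line, those at the thresholds, those with extreme ratios, and *Yu*. Alternatives were other factors, filters, DESeq2 1.42.0, limma-voom of limma 3.58.1, a linear model on GeTMM values, a replicate block, males alone, a chemoreceptor covariate and leaving out each library. On simulated data of the comparison of deletion with DGRP_208 males (16180 genes), edgeR called 7.6% of 2-fold, 52.4% of 4-fold and 82.8% of 8-fold changes with 5 false calls, and DESeq2 made 62 false calls. The simulation gave each gene the same mean level in both sexes and drew libraries independently. It held no sex difference and no shift shared by libraries, so its rates need not hold for the measured libraries.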

Additional observations from a re-analysis of the deposited data

Results flagged for a closer look

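Over the summed level and each of the 42 RNAs, in males and in females, 86 groups of 8 libraries were examined, and in 13 the gap between 1 library and the rest made up more of the range than Dixon's 95% critical value for 8 libraries. Chance flags about 1 in 20 groups, and the RNAs share their libraries. In 10 of the 13 the library was *208-ΔF* female replicate 2. The gap was 0.986 of the range in *lncRNA:CR32652* (12.6 CPM by library total against 0.288 to 0.456 in the other females), 0.95 in *lncRNA:CR32661* (5.22 against 0 to 0.263), 0.914 in *lncRNA:CR9284* (8.12 against 0 to 0.695), 0.862 in *lncRNA:CR44557* (0.522 against 0 to 0.0719) and 0.844 in *lncRNA:CR32657* (3.90 against 0.0474 to 0.647). It was 0.836 in *lncRNA:CR43803*, 0.736 in *lncRNA:CR43239*, 0.66 in *lncRNA:CR43881*, 0.534 in *asRNA:CR43152* and 0.529 in *lncRNA:CR43835*. The seminal protein gene *Mst57Db* also stood at its highest female level in this library, at 33.3 TMM-scaled CPM. *208-ΔG* female replicate 1 stood apart in *lncRNA:CR45634* (gap 0.668, 1.15 CPM against 0.0525 to 0.417) and *lncRNA:CR43157* (gap 0.634, 4.68 CPM against 0.197 to 1.84). Among males, DGRP_208 replicate 1 stood apart in *lncRNA:CR44557* (gap 0.554, 11.2 CPM against 5.38 to 7.97).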

How the results depend on the processing

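Counts of called RNAs among the 42 moved with the tool and threshold. DESeq2 called 1 in deletion males against DGRP_208 (0.376% of all genes), 2 in *208-ΔA* (0.734%) and 1 in *208-ΔG* (0.629%) against DGRP_208. It called 11 in *208-ΔG* against *208-ΔA* (41.4% of all genes) and 2 among all male lines (3.44%). For *208-ΔG* against *208-ΔA*, limma-voom called 17 (39.8% of all genes), and edgeR 9 at an adjusted p under 0.1, where 46.8% of all genes were called. Without single libraries that count ran from 0 to 8 (3 without DGRP_208 male replicate 1 and 8 without replicate 2, where 31.3% and 40.03% of all genes were called), and that for *208-ΔG* against DGRP_208 from 0 to 4. In the other comparisons it stayed at 0. Deviations of replicate 1 from its group mean had no common direction over the groups (correlations of −0.771 to 0.596 over 28 pairs). With 2 libraries a group this cannot show whether equal replicate numbers were prepared together. A fit with the replicate number as a block called 0 of the 42 in all 9 comparisons, against 0 to 0.0432% of all genes. The number of RNAs was 72 at a male mean of 2 CPM and 39 to 44 without single libraries. Summed male levels were 1953 CPM in *208-ΔA* and 1494 in *208-ΔG* by library total, and 1964 and 881 TMM-scaled CPM over the 33 RNAs whose exons overlap no gene. In deletion males against DGRP_208, *lncRNA:CR43754* turned to 0.19 without DGRP_208 male replicate 1, with a range of −1.12 to 0.19 without single libraries. In the same comparison *lncRNA:CR43263*, chosen only through its DGRP_208 males, was called by DESeq2 (−2.15). The DESeq2 calls in *208-ΔA* against DGRP_208 and among all male lines include *lncRNA:CR45633*, chosen only through the deletion males. With 2 libraries a group, a lone library is assumed to vary like the others, and female levels rest on few counts.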
